A study of Mus musculus with 54 samples.

Results

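Naive CD4+ T cells are small resting lymphocytes, and antigen receptor and CD28 signals turn them into large dividing cells. The RNAs of 40 genes that build ribosomes were followed through the first 20 h of that change. These genes were listed by name. They came from the RNA polymerase I machinery, the small nucleolar ribonucleoprotein (snoRNP) complexes, the nucleolar proteins and the factors that process ribosomal RNA (rRNA). This list and the others below were chosen with earlier results of these data known, so shares of the lists are given as a description. All 40 were among the 55385 genes of the count tables and among the genes tested in both experiments, so that no member was lost to a filter on low counts, and the lowest read count of any member in any library was 514.

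A ribosome is assembled around rRNA in the nucleolus. RNA polymerase I, brought to the rRNA genes by UBTF and the initiation factor encoded by Rrn3, makes a long precursor. Box C/D snoRNPs methylate it, box H/ACA snoRNPs convert uridines to pseudouridines, and a succession of small subunit and large subunit factors fold and cut it while ribosomal proteins join. In lymphocytes this production line runs slowly at rest and is raised when the cells grow, and the transcription factor MYC, which binds the E-box sequence CACGTG, is a known activator of many of its genes.

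Bulk mRNA sequencing was done on C57BL/6 mouse cells pooled from lymph nodes and spleens, with 3 libraries per group. In the CD5/CD6 experiment, 36 libraries came from naive CD4+ T cells enriched with magnetic beads from wild type (WT), Cd5-/-, Cd6-/- and Cd5-/-Cd6-/- mice, the last 3 lacking one or both of the related surface receptors CD5 and CD6. Its WT cells are called enriched WT cells. In the LAT experiment, 18 libraries came from cells of Lat fl-dtr maT-Cre mice, sorted by flow cytometry into cells that had kept the adaptor LAT (human diphtheria toxin receptor positive, here sorted WT cells) and cells in which T cell-expressed Cre had deleted it (receptor negative, here Lat-/-). Both came from the same Cre-bearing mice. Cells of every genotype were taken unstimulated (0 h) or after 4 h or 20 h on plate-bound anti-CD3 (3 µg/ml) with soluble anti-CD28 (1 µg/ml). The study describes the 3 samples of a condition as prepared independently, and neither it nor the labels says whether they came from separate mice, so the p-values measure the spread between these preparations.

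Library totals ran from 20554354 to 45222554 counts in the CD5/CD6 experiment and from 17784644 to 28501095 in the LAT experiment. LAT transcripts checked the sort, at 214 to 292 CPM (read counts scaled to a library total of 1000000) in unstimulated sorted WT and 11.6 to 19.1 CPM in unstimulated Lat-/- libraries. Unstimulated enriched WT cells had 649 to 792 CPM of Lat, more than the sorted ones, and the tables were not compared beyond that. At 0 h, library 2 labelled Cd5-/- held 719 CPM of Cd5 and 329 CPM of Cd6, and library 2 labelled Cd6-/- held 172 CPM of Cd5 and 1203 CPM of Cd6, which goes against both labels, so values below that use these libraries were also computed without them. Lat-/- library 3 at 20 h stood apart from libraries 1 and 2, as described with those cells. Summed markers of B cells (7 genes, 65.1 to 617 CPM) and of red cells (5 genes, 1038 to 2390.5 CPM) were high in enriched WT cells at 0 and 4 h and low at 20 h (at most 3.50 and 44.4 CPM), when all 12 had fallen. Sorted WT cells had at most 4.94 and 1.89 CPM of them at any time. Markers of CD4+ T cells were high in all 54 libraries, with sums of 3932 CPM or more.

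Each gene was tested across all genes of its experiment with edgeR's quasi-likelihood test, and a gene is said to have risen or fallen, or is called, where the Benjamini-Hochberg adjusted p was under 0.05 and the fold change over 2. Changes are given as log2 fold changes with their standard errors (SE), where 1 means a doubling. Because the libraries were scaled to each other, a value is a share of the messenger RNA. In bulk cells, fewer cells of a type and less RNA per cell cannot be told apart.

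The E-box was looked for in RefSeq promoter windows (mouse build GRCm38.p6, 250 bases before to 50 after each start site), since it marks a possible meeting point of these genes with MYC. Windows were matched for 34 members, those of Rrp12, Bop1, Rrs1, Tcof1, Fbl and Npm1 being without one. CACGTG, which reads the same on both strands, was in 7 of the 34 (20.6%), against 8.9% of 17492 protein-coding genes. The related CACGCG, searched on both strands, was in 35.3% of members and 13.7% of genes, and the GC box GGGCGG in 76.5% and 49.2%. CCAAT (35.3% and 42.3%) and TATAAA (5.9% and 14.8%) were less frequent in the members. The 6 that changed most at 4 h are shown with up to 12 bases on each side, the E-box in capitals.
Nop2 (chr6:125131811-125131840, plus strand): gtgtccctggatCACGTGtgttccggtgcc
Utp4 (chr8:106893643-106893672, plus strand): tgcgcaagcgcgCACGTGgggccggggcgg
Wdr43 (chr17:71616220-71616249, plus strand): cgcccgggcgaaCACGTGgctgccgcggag
Utp20 (chr10:88826765-88826789, minus strand): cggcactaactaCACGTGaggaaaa
Mybbp1a (chr11:72441355-72441376, plus strand): gtcttctgagccCACGTGtttg
Pes1 (chr11:3963965-3963994, plus strand): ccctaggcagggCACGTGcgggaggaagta
In Nop2 the E-box begins 60 bases before the start site, and in the other 5 it begins after it, by 15 bases in Utp4, 17 in Wdr43, 37 in Utp20, 40 in Mybbp1a and 2 in Pes1. The remaining member, Rrn3, had 2 copies before its start. The 7 members with an E-box had a median log2 change of 2.03 at 4 h in enriched WT cells (1.60 to 2.60). The 27 without one had a median of 2.23 (-0.11 to 2.85). The ranges overlapped, and a link between the sequence and the size of the change was not tested.

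Stimulation raised most of these genes about 4-fold within 4 h. In enriched WT cells, 37 of 40 members rose at 4 h and 37 at 20 h, where 8.24% and 12.3% of all genes tested rose, and none fell. Among the 16143 genes with enough counts for edgeR's own expression filter, 16.3% and 24.1% rose. The median change of the members was 2.11 at 4 h and 2.05 at 20 h, and that of all genes was 0.00. Together the 40 genes took 0.530% ± 0.0273 (SD, n = 3) of all counts in resting cells, which became 1.80% ± 0.183 at 4 h and 1.97% ± 0.254 at 20 h. Sorted WT cells, with almost no B cell or red cell RNA, gave 35 and 37 risen members (8.05% and 10.8% of all genes, and 15.4% and 20.0% of the genes kept by the expression filter), medians of 1.89 and 1.64, and shares of 0.574% ± 0.0352, 1.66% ± 0.170 and 1.77% ± 0.0379. DESeq2 gave the same 4 numbers of calls. In enriched WT cells, Ubtf and Tcof1 were the members with an adjusted p above 0.05 at 4 h and again at 20 h.

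**Figure D1:**
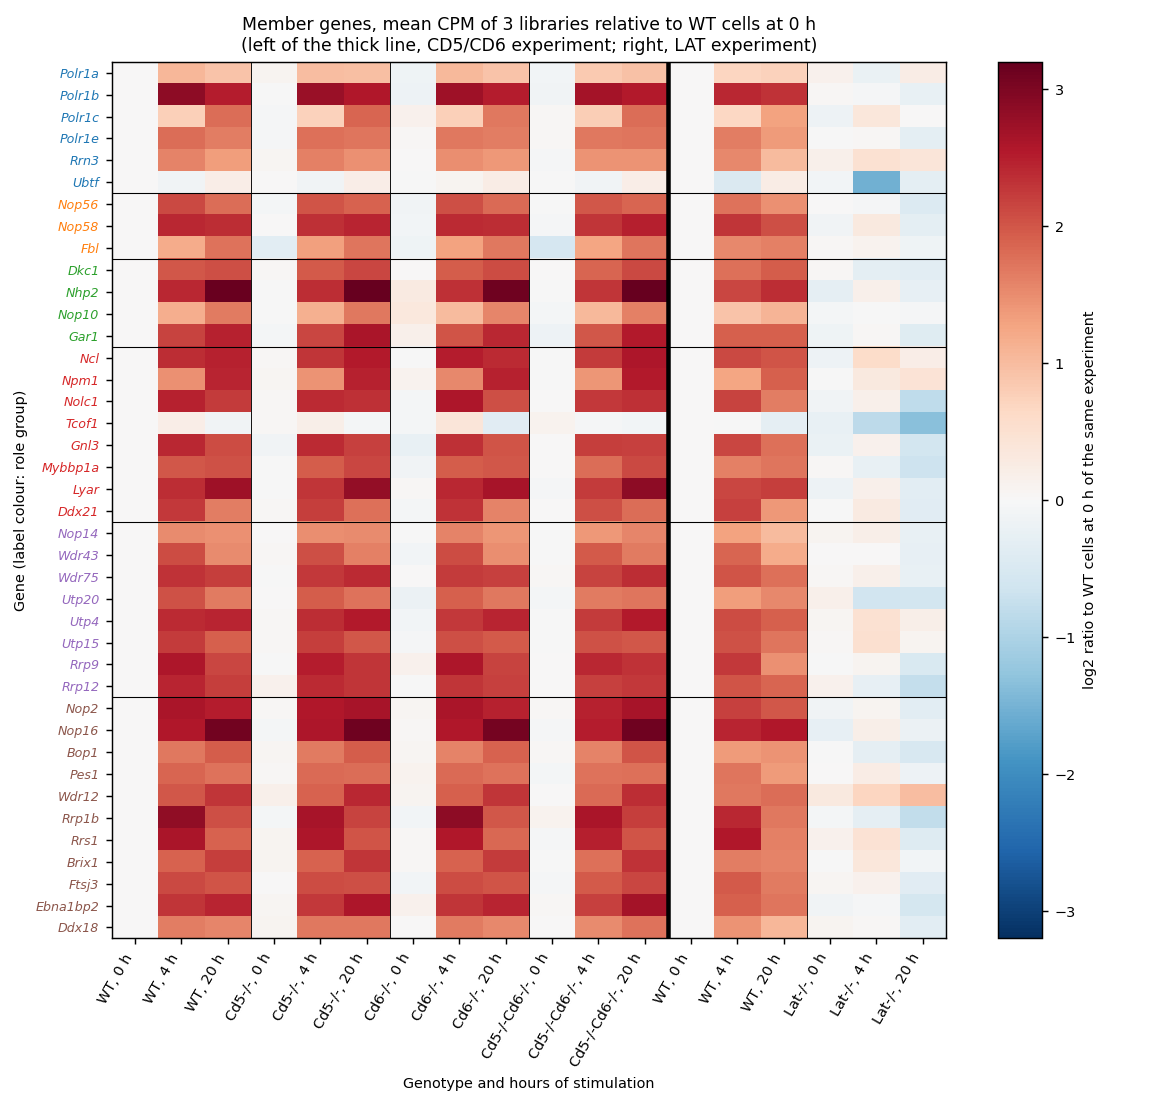
Mean CPM of 3 libraries for each of the 40 genes (rows, grouped and coloured by role) in each genotype at 0, 4 and 20 h (columns), as the log2 ratio to WT cells at 0 h of the same experiment. Most rows are red at 4 and 20 h in WT, Cd5-/-, Cd6-/- and Cd5-/-Cd6-/- cells and pale or blue in Lat-/- cells, and the rows of Ubtf and Tcof1 stay pale in WT cells.

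The polymerase I group was the most divided at 4 h. Polr1b, which encodes the second largest subunit of the enzyme, had 45.8, 53.0 and 57.8 CPM in the 3 unstimulated libraries of enriched WT cells, 383, 405 and 345 CPM at 4 h, and 308, 308 and 282 CPM at 20 h. All stimulated libraries lay above all unstimulated ones, and its 4 h change of 2.85 (SE 0.15, edgeR adjusted p 4.08e-27) was the highest of the 40. Polr1a, which encodes the largest subunit, had 112, 119 and 122 CPM at 0 h, 272, 292 and 173 CPM at 4 h, and 262, 252 and 144 CPM at 20 h. Its stimulated libraries all lay above its unstimulated ones, but library 3 was low at 4 h and at 20 h. It passed at 4 h with 1.06 (SE 0.21), a call lost without replicate 1 (0.95) or replicate 2 (0.90), and not at 20 h with 0.90 (SE 0.21), where it passed without replicate 3 (1.15). In the LAT experiment its changes were 0.70 and 0.75 (SE 0.15 for both), under 2-fold.

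Polr1c encodes a subunit shared by polymerases I and III and had the slowest course. Its CPM were 63.8, 61.0 and 83.1 at 0 h, 112, 115 and 123 at 4 h, and 199, 238 and 284 at 20 h, so each time lay above the one before. The log2 change was 0.75 (SE 0.18) at 4 h, under 2-fold, and 1.79 (SE 0.19, edgeR adjusted p 1.85e-13) at 20 h. Sorted WT cells gave 0.68 (SE 0.15) and 1.29 (SE 0.15).

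Ubtf, whose product binds rRNA genes and opens them for initiation, and which had the second highest level per kilobase of the group, hardly moved. It had 268, 300 and 297 CPM at 0 h, 286, 290 and 224 CPM at 4 h, and 360, 369 and 264 CPM at 20 h, with overlapping groups and changes of -0.11 and 0.20 (SE 0.16 for both, edgeR adjusted p 0.716 and 0.372). In sorted WT cells it went from 316, 351 and 274 CPM to 256, 226 and 199 CPM at 4 h and to 362, 371 and 374 CPM at 20 h. Its 4 h value there, -0.47 (SE 0.15, edgeR adjusted p 0.00672), was under 2-fold. Polr1e, encoding another polymerase I subunit, rose by 1.79 and 1.65, and Rrn3 by 1.60 and 1.33, in enriched WT cells.

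**Figure D2:**
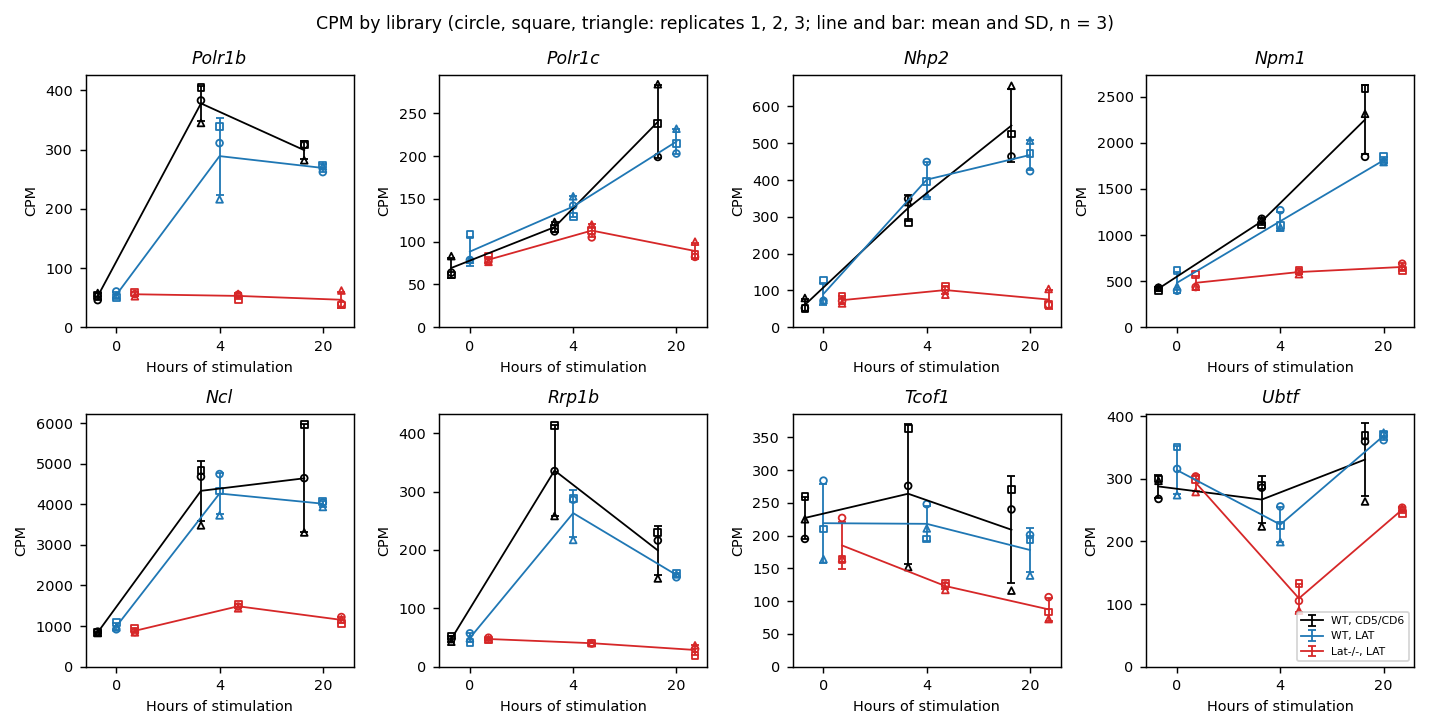
CPM (linear axis from 0) of 8 genes against hours of stimulation (evenly spaced), one symbol per library, with lines through the means and bars for the SD (n = 3), for WT cells of both experiments and Lat-/- cells. Polr1b and Rrp1b are highest at 4 h in WT cells, Polr1c and Npm1 at 20 h, and the Lat-/- libraries of Polr1b stay between 37.4 and 62.0 CPM.

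All 7 snoRNP core genes rose at both times in enriched WT cells. Scaled by library totals without TMM factors, Fbl (0.94) and Nop10 (0.92) were under 2-fold at 4 h. The box C/D proteins include Nop56 and Nop58, scaffold proteins of the complex, and Fbl, the methyltransferase fibrillarin. Nop58 had 169, 178 and 172 CPM at 0 h, 967, 936 and 867 CPM at 4 h, and 844, 969 and 851 CPM at 20 h, a change of 2.42 (SE 0.15) and then 2.36 (SE 0.15). Nop56 had 77.8, 102 and 89.2 CPM, then 383, 432 and 347 CPM, then 300, 325 and 309 CPM. Neither gene had a stimulated library near the unstimulated ones. Fbl rose less at 4 h, by 1.20 (SE 0.16), and by 1.73 (SE 0.17) at 20 h. Introns of Nop56 and Nop58 also carry snoRNA genes, and with Ncl, Gnl3, Dkc1 and Wdr43 they make 6 members that host 19 annotated snoRNAs.

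Among the box H/ACA genes, which include the pseudouridine synthase gene Dkc1, Nhp2 had the widest course of any member. Its CPM were 52.3, 50.7 and 79.5 at 0 h, 349, 285 and 340 at 4 h, and 464, 525 and 656 at 20 h, and no library of one time overlapped another. The changes were 2.41 (SE 0.21) at 4 h and 3.17 (SE 0.21, edgeR adjusted p 3.52e-22) at 20 h, the latter the highest of the 40. Nop10, encoding the smallest core protein, went from 77.6, 65.2 and 103 CPM to 189, 166 and 193 CPM and 229, 239 and 309 CPM, a smaller change of 1.16 and 1.66 (SE 0.19 for both). Dkc1 rose by 1.99 and 2.06 and Gar1 by 2.17 and 2.47. In sorted WT cells 6 of the 7 core genes rose at 4 h and 7 at 20 h, the exception being Nop10 at 0.91 (SE 0.15) at 4 h.

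The nucleolar scaffold and growth genes hold the most abundant members. Averaged per kilobase of exon over the 36 libraries of the CD5/CD6 experiment, Npm1, encoding nucleophosmin, had 489 CPM per kb and Ncl, encoding nucleolin, 324, while the lowest of the 40 were Wdr12 at 11.0 and Polr1a at 16.0 CPM per kb. Ncl had 861, 839 and 827 CPM at 0 h, 4684, 4838 and 3483 CPM at 4 h, and 4648, 5975 and 3308 CPM at 20 h. It was far above rest in every stimulated library, with changes of 2.36 and 2.46 (SE 0.19 for both), and library 3 was the lowest at both times. Npm1 climbed in steps, from 429, 398 and 428 CPM to 1177, 1109 and 1163 CPM and 1849, 2593 and 2316 CPM, by 1.46 and then 2.43 (SE 0.18 for both).

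Tcof1, whose product treacle supports rRNA transcription, was the only one of these 8 that did not rise. It had 195, 260 and 225 CPM at 0 h, 276, 364 and 152 CPM at 4 h, and 240, 270 and 116 CPM at 20 h, where library 3 lay far below the others and the groups overlapped. The changes were 0.22 and -0.12 (SE 0.27 for both, edgeR adjusted p 0.638 and 0.875), and those in sorted WT cells -0.01 and -0.30 (SE 0.15 for both). The other 5 were Nolc1, a snoRNP chaperone, Gnl3 (nucleostemin), Mybbp1a, Lyar and the RNA helicase gene Ddx21. They rose by 1.99 to 2.46 at 4 h and by 1.63 to 2.71 at 20 h.

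Small subunit factors rose as a block, 8 of 8 at each time in both experiments, with medians of 2.27 and 2.02 in the CD5/CD6 experiment. Rrp9, encoding a protein of the U3 snoRNP that guides early cleavages, went from 59.6, 67.0 and 76.8 CPM to 395, 417 and 409 CPM at 4 h and was lower again at 20 h, with 251, 314 and 326 CPM. Its changes were 2.59 (SE 0.17) and 2.13 (SE 0.16). Utp4, encoding a protein of the early assembly complex, stayed level once raised, from 65.6, 64.7 and 87.6 CPM to 386, 371 and 373 CPM and 374, 396 and 400 CPM. The smallest change of the group was that of Nop14 (1.50 and 1.46). Utp20, with the longest coding sequence of the 40 (8367 bases), had changes of 2.03 and 1.65 with wide SE (0.25 for both).

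Large subunit factors likewise rose in full, 11 of 11 at each time in both experiments. Nop16 had 36.2, 37.9 and 42.9 CPM at 0 h, 231, 220 and 243 CPM at 4 h, and 271, 353 and 363 CPM at 20 h, and its change grew from 2.57 (SE 0.17) to 3.08 (SE 0.18). Nop2, which encodes an rRNA methyltransferase, went from 60.4, 68.3 and 73.6 CPM to 414, 448 and 366 CPM and 372, 437 and 343 CPM. These 2 genes had the highest levels per kilobase of the group. Rrp1b and Rrs1 peaked early. Rrp1b had 46.9, 52.3 and 42.6 CPM, then 335, 413 and 258 CPM, then 216, 230 and 151 CPM, and Rrs1 had 45.9, 39.3 and 51.0 CPM, then 295, 274 and 265 CPM, then 160, 184 and 161 CPM. In Rrs1 the 3 times did not overlap, whereas library 3 of Rrp1b at 4 h (258 CPM) came close to library 2 at 20 h (230 CPM). Pes1, Bop1 and Wdr12, which together form the PeBoW complex of the maturing large subunit, rose by 1.87, 1.69 and 1.99 at 4 h.

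**Figure D3:**
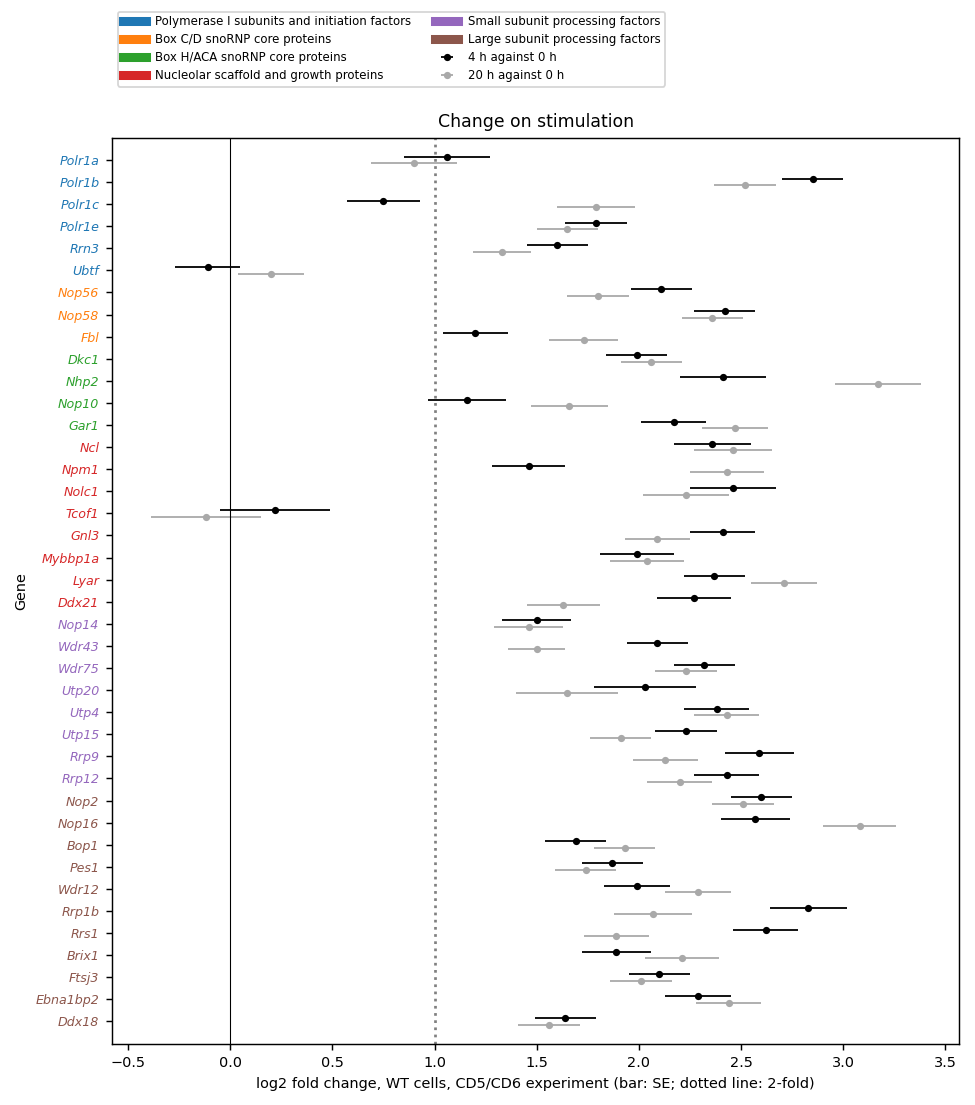
Log2 fold change (horizontal axis, bars for the SE) of each of the 40 genes (vertical axis, coloured by role) in enriched WT cells at 4 h (black) and 20 h (grey) against 0 h, with a dotted line at 2-fold. All genes but Polr1a, Polr1c, Ubtf and Tcof1 lie to the right of the line at both times, Polr1b leads at 4 h with 2.85 and Nhp2 at 20 h with 3.17.

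Between 4 h and 20 h the median of the set changed little. Counting both directions, no larger a part of its members than of all genes passed the thresholds or adjusted p alone. With no overlap of libraries, 11 members lay above and 9 below their 4 h level in enriched WT cells (17.5% and 19.7% of all genes). In sorted WT cells 4 lay above and 14 below (18.3% and 20.8%). These shares are of all genes with at least 1 read, whereas every member had 514 or more in each library. The median change from 4 to 20 h was -0.08 in the CD5/CD6 and -0.19 in the LAT experiment, and 1 and 0 members passed the thresholds, against 21.0% and 17.2% of all genes. That call, Polr1c at 1.04 (SE 0.18, edgeR adjusted p 2.36e-06), sat on the 2-fold line and was lost with DESeq2 (1.00) and without replicate 3 (0.94). By adjusted p alone, 11 members differed in each experiment (27.5% of the 40), no more than the 30.5% and 29.5% of all genes that did. In the CD5/CD6 experiment the 6 with a positive change (13.8% of all genes) were Polr1c, Npm1 (0.97), Nhp2 (0.76), Fbl (0.53), Nop16 (0.51) and Nop10 (0.50), and the 5 with a negative one (16.7%) were Rrp1b (-0.75), Rrs1 (-0.72), Ddx21 (-0.63), Wdr43 (-0.59) and Rrp9 (-0.46). In sorted WT cells these 5 were also negative by adjusted p alone (-0.75, -0.95, -0.79, -0.67 and -0.81), and Polr1c (0.62), Npm1 (0.65) and Ubtf (0.70) were positive. Rrn3 (-0.52), Nolc1 (-0.54) and Gnl3 (-0.38) were negative as well, making 8 lower (16.1% of all genes) and 3 higher (13.4%). Nhp2, Fbl, Nop16 and Nop10 did not pass there, at 0.22, 0.08, 0.11 and 0.20.

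Part of the spread between replicates went with gene length. Within WT cells at 20 h, library 3 was lower, relative to the other libraries, the longer the coding sequence of the member (Spearman rho -0.81 over the 40 genes, as a description, and -0.69 over 10217 genes of any kind). In WT cells at 4 h the values were -0.78 and -0.56, in the 3 knockout genotypes at 20 h they were -0.74 to -0.80 and -0.66 to -0.68, and in Cd6-/- cells at 4 h they were 0.02 and 0.05. Tcof1 (4068 bases of coding sequence) and Polr1a (5151) were lowest in library 3 at 20 h, and Nop10 (192) and Nhp2 (459) highest. In sorted WT cells the same was seen, with rho 0.87 for library 1 and -0.75 for library 2 at 0 h (0.66 and -0.58 over all genes) and -0.68 for library 3 at 20 h (-0.37), and these 0 h libraries enter each response of sorted WT cells. In enriched WT cells, the 6 members higher at 20 h than at 4 h by adjusted p alone had coding sequences of 192 to 1038 bases. Those of the 5 lower ones had 1095 to 2553 bases, and the median of the 40 was 1866. The part of gene length in the SE and in the changes from 4 to 20 h was not tested beyond leaving out replicate 3. Without that replicate, 37 members rose at 4 h and 38 at 20 h in enriched WT cells.

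The wider list of 103 ribosome biogenesis genes outside the 40 moved the same way but less. In the CD5/CD6 experiment, 76 rose and 0 fell at 4 h, with a median of 1.49, and 74 rose and 1 fell at 20 h, with a median of 1.39. For snoRNP assembly 7 of 9 rose at 4 h, for the small subunit 31 of 42, for the large subunit 34 of 43, and for further polymerase I genes 4 of 9. Naf1, an assembly factor of box H/ACA snoRNPs, led with 3.61 (SE 0.18), from 7.53 to 92.2 CPM, followed by the small subunit gene Nol10 at 3.32 (SE 0.17). Mrto4, which works on the large subunit stalk, rose by 2.79 (SE 0.18), and Cd3eap, a polymerase I subunit gene, by 2.28 (SE 0.16). At the low end, Ttf1, encoding the polymerase I termination factor, was at -0.42 (SE 0.25) at 4 h and fell by 1.09 at 20 h, and Nop53 was at -0.50 and -0.86 (SE 0.16 for both), under 2-fold. Riok3 was at -0.09 and Pih1d1 at -0.85 at 4 h.

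Genes of the other 2 nuclear RNA polymerases changed less. Of 8 polymerase II subunit genes 0 were called at 4 h (4 higher by adjusted p alone, as 13.3% of all genes were, and 0 with DESeq2) and 5 rose at 20 h, with medians of 0.36 and 1.30, and at 4 h they ranged from -0.49 for Polr2g to 0.82 for Polr2c. Of 11 polymerase III subunit genes 4 rose and 1 fell at each time. Polr3gl fell by 2.51 (SE 0.21) at 4 h, from 27.4 to 4.83 CPM. The 89 ribosomal protein genes tested had a median of -0.11 at 4 h, 9 of them higher and 1 lower, against 2.11 for the 40 biogenesis genes, a difference between lists that is given as a description.

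In cells without CD5, CD6 or both, the response had a median size close to that of enriched WT cells. At 4 h, 36 members rose in each of the knockouts, in the order Cd5-/-, Cd6-/-, Cd5-/-Cd6-/- (8.20%, 7.72% and 7.57% of all genes rose), and at 20 h 37, 38 and 38 (12.5%, 11.4% and 12.3%). The median changes were 2.07, 2.11 and 2.01 at 4 h and 2.12, 2.08 and 2.13 at 20 h. Polr1b, at 383, 405 and 345 CPM in WT cells at 4 h, had 349, 377 and 339 CPM in Cd5-/-, 379, 347 and 309 CPM in Cd6-/- and 332, 334 and 332 CPM in Cd5-/-Cd6-/- cells, so that the double knockout libraries lay just under the WT ones. Without the 0 h libraries whose Cd5 and Cd6 levels go against their labels, 36 and 37 members rose in Cd5-/- and 36 and 38 in Cd6-/- cells.

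Set against WT cells at the same time, 0 of 40 members were called in any of the 3 knockouts at 0, 4 or 20 h, by edgeR or by DESeq2. The background was as low, with 0.0619%, 0.0743% and 0.0186% of all genes called in Cd5-/- cells at 0, 4 and 20 h, 0%, 0.00310% and 0.0186% in Cd6-/- cells, and 0.0248%, 0.0434% and 0.0434% in Cd5-/-Cd6-/- cells. Nor did any member's response to stimulation differ from the WT response, in 0 of 6 comparisons, where 0.00310%, 0.00310%, 0%, 0.00310%, 0% and 0% of all genes did, for Cd5-/-, Cd6-/- and Cd5-/-Cd6-/- cells at 4 and 20 h in turn. At an unadjusted p under 0.05 there was 1 member in Cd5-/- and 1 in Cd5-/-Cd6-/- cells at 0 h, and 0 in the other 7 comparisons, Fbl being the gene in both. Of the differences between responses, 3 had 1 such member, Fbl again, and 3 had 0. The SE of the differences from WT ran from 0.14 to 0.27, which bounds what 3 libraries a group could show, and a missed threshold does not show equal levels.

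The largest differences from WT were small and few of them were separate from the replicate spread. At 0 h Fbl was furthest from WT in 2 genotypes. It had 36.0, 45.3 and 32.7 CPM in WT, 28.4, 22.3 and 39.2 CPM in Cd5-/- and 26.4, 23.6 and 28.5 CPM in Cd5-/-Cd6-/- libraries, where only the double knockout was apart from WT. The differences were -0.34 and -0.54 (SE 0.16 for both, edgeR adjusted p 1 for both), and by 4 h the levels overlapped. Without library 2 labelled Cd5-/-, whose Cd5 level goes against its label, the Cd5-/- difference was -0.18, and without replicate 2 of every group the double knockout difference was -0.33. Nop10 led in Cd6-/- cells at 0 h with 0.32 (SE 0.19), resting on library 3 (146 CPM against 78.2 and 84.0 CPM) and at 0.18 without replicate 3. At 4 h the largest were Rrp1b in Cd5-/- (-0.18), Ubtf in Cd6-/- (0.19) and Utp20 in Cd5-/-Cd6-/- cells (-0.37, SE 0.24), and at 20 h Rrp9 (0.17), Tcof1 (-0.23) and Ebna1bp2 (0.22).

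A small offset shared by most members was seen in the double knockout. At 4 h, 38 of 40 members were lower than in WT cells, by a median of 0.14 on the log2 scale (the median over all genes was 0.00), and 8 lay below WT with no overlap of libraries, where 2.58% of all genes did. At 20 h, 37 of 40 were higher, with a median of 0.10. In Cd5-/- cells the medians were -0.03 and 0.08. The 40 genes were measured in the same libraries, so these counts of signs are not 40 independent observations. Of the summed markers of other cells at 4 h, only those of NK cells were apart from WT. NK cell markers were 25.2 to 43.1 CPM in Cd5-/-Cd6-/- and 13.4 to 20.2 CPM in WT cells. Red cell markers overlapped, at 1011 to 3935 CPM and 1055 to 1954 CPM. So did B cell markers (88.5 to 136 and 65.1 to 207 CPM) and myeloid markers (69.4 to 104 and 71.5 to 89.8 CPM). The double knockout library with the most red cell RNA (library 2) had the lowest member median (1.90 on the log2 scale above WT cells at 0 h). The WT library with the most (library 1) had the highest WT median (2.19). The part of these markers in the offset was not tested. The shares of all counts overlapped in range at both times, 1.65% ± 0.0379 (SD, n = 3) in Cd5-/-Cd6-/- against 1.80% ± 0.183 in WT cells at 4 h and 2.10% ± 0.250 against 1.97% ± 0.254 at 20 h. Between libraries of the same number, the double knockout share was higher in 3 of 3 pairs at 20 h. At 4 h the member median was lower in 3 of 3 pairs, but the share was not lower in library 3 (1.61% against 1.59% in WT cells).

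**Figure D4:**
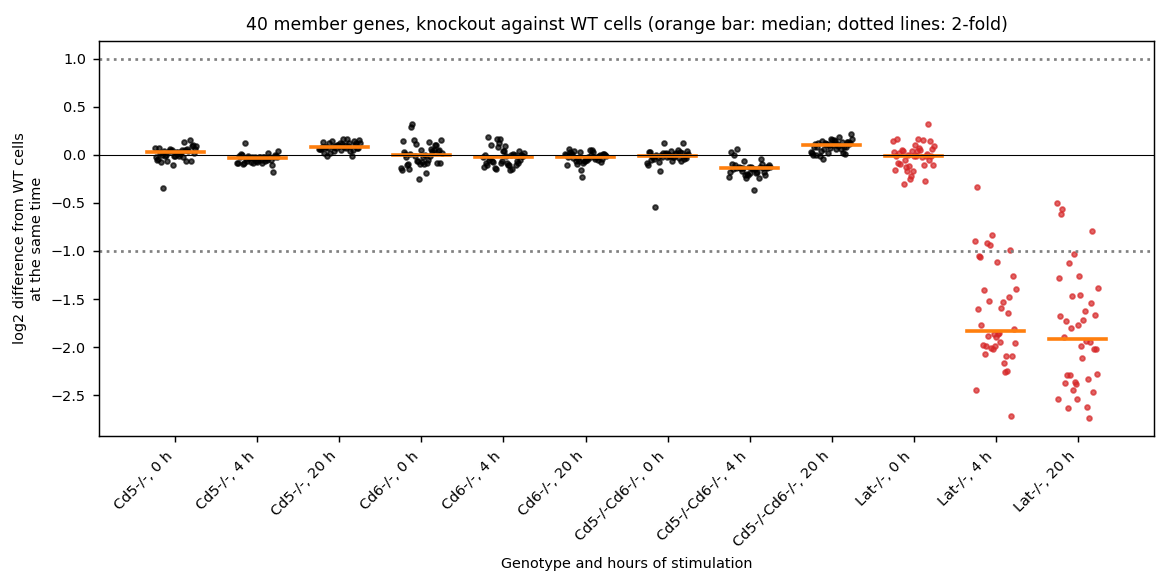
Log2 difference from WT cells at the same time (vertical axis) for the 40 genes (points) in each knockout at 0, 4 and 20 h (horizontal axis), with the median as an orange bar and dotted lines at 2-fold. The points of Cd5-/-, Cd6-/- and Cd5-/-Cd6-/- cells lie between -0.54 and 0.32, and those of Lat-/- cells fall to -2.72 at 4 h and -2.74 at 20 h.

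Without LAT, stimulation moved these genes far less than in sorted WT cells. Unstimulated Lat-/- and WT cells had alike levels, with a median difference of -0.01 and 0 members called (0.961% of all genes, 2 members at an unadjusted p under 0.05, and 0 with DESeq2), the largest being Wdr12 at 0.32 (SE 0.15, edgeR adjusted p 0.719). In Lat-/- cells 0 members rose at 4 h or at 20 h. The single call at 4 h was Ubtf, which fell, and at 20 h it was Tcof1, which also fell (6.70% and 4.21% of all genes were called in either direction). The medians were 0.11 and -0.26, against 1.89 and 1.64 in sorted WT cells, and the share of all counts went from 0.543% ± 0.0168 (SD, n = 3) to 0.586% ± 0.00346 at 4 h and 0.493% ± 0.0600 at 20 h. By adjusted p alone, 7 members were higher at 4 h, (Ncl, Polr1c, Nop16, Utp15, Nhp2, Utp4 and Nop58, each under 2-fold, and 7.38% of all genes were higher), and 3 were lower (Ubtf, Utp20 and Tcof1, and 8.05% of all genes). With no overlap of libraries, 16 members lay above their 0 h level at 4 h and 8 below it, where 12.3% and 13.2% of all genes did.

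At 4 h, 34 of 40 members were lower in Lat-/- than in WT cells (6.23% of all genes), and at 20 h 36 were (12.3%), with median differences of -1.83 and -1.91. At both times all 40 had every Lat-/- library under every WT library, where 16.5% and 22.7% of all genes did. The test of the difference between the responses gave 35 members at 4 h and 36 at 20 h (4.34% and 9.35% of all genes). By role, the 20 h calls against WT took 3 of 6 polymerase I genes, 3 of 3 box C/D, 4 of 4 box H/ACA, 8 of 8 scaffold, 8 of 8 small subunit and 10 of 11 large subunit genes. The uncalled were Polr1a (-0.50), Rrn3 (-0.62), Ubtf (-0.56) and Wdr12 (-0.79), all under 2-fold with edgeR adjusted p of 0.00267 or less.

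Rrp1b and Nop16 were the members furthest below WT. Rrp1b had 286, 288 and 217 CPM in WT and 39.5, 40.3 and 40.1 CPM in Lat-/- libraries at 4 h, a difference of -2.72 (SE 0.16, edgeR adjusted p 3.39e-61). Nop16 had 282, 294 and 306 CPM against 40.3, 31.3 and 60.8 CPM at 20 h, a difference of -2.74 (SE 0.16, edgeR adjusted p 7.20e-64). Unstimulated Lat-/- libraries had 45.5 to 49.4 CPM of Rrp1b and 38.2 to 43.0 CPM of Nop16, so neither was far from its resting level. Ncl went from 851, 947 and 843 CPM to 1480.3, 1543 and 1436 CPM at 4 h in Lat-/- cells, against 4748, 4329 and 3729 CPM in WT cells, the largest positive change of a member without LAT (0.76, SE 0.14), though under 2-fold. Nhp2 reached 102, 111 and 88.4 CPM against 449, 395 and 357 CPM.

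**Figure D5:**
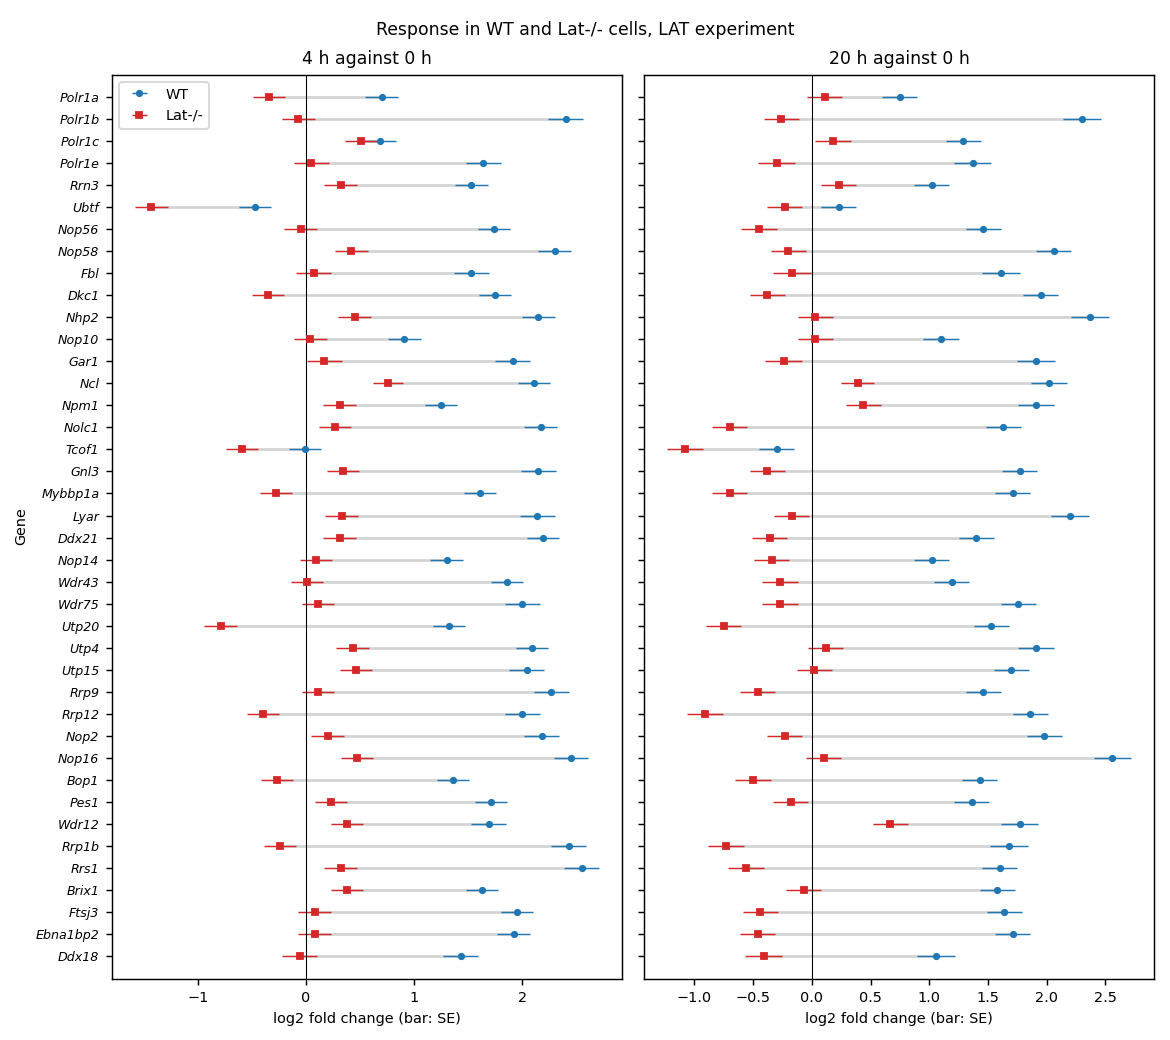
Log2 fold change against 0 h (horizontal axis, bars for the SE) at 4 h and 20 h for each of the 40 genes (vertical axis) in WT (blue circles) and Lat-/- cells (red squares) of the LAT experiment, joined by a grey line. The Lat-/- medians are 0.11 and -0.26 and those of WT cells 1.89 and 1.64, and Polr1c at 4 h is the pair with the smallest gap.

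Polr1c and Ubtf departed from this picture at 4 h. Polr1c had 77.1, 83.2 and 76.4 CPM at 0 h and 105, 113 and 120 CPM at 4 h in Lat-/- cells, a change of 0.51 (SE 0.15, edgeR adjusted p 0.0062) beside 0.68 in WT cells. The 2 responses did not differ by the test (-0.16, SE 0.21, edgeR adjusted p 0.857). By 20 h its CPM were 82.2, 85.1 and 100 in Lat-/- and 203, 215 and 232 in WT cells, with no overlap and a difference of -1.28 (SE 0.15). Ubtf dropped in Lat-/- cells from 304, 299 and 279 CPM to 105, 133 and 89.4 CPM at 4 h and came back to 254, 245 and 253 CPM at 20 h. The fall was -1.43 (SE 0.15, edgeR adjusted p 3.33e-19) and the later rise 1.20 (SE 0.15), the one call from 4 to 20 h in these cells (4.10% of all genes). The set went the other way over that time, with a median of -0.40, 22 members below their 4 h libraries with no overlap (9.48% of all genes) and 3 above (9.67%). By adjusted p alone 17 members were lower, led by Nolc1 (-0.97), Rrs1 (-0.88) and Gnl3 (-0.72), and Ubtf and Polr1a (0.44) were higher, against 4.74% and 5.39% of all genes. For Ubtf, the difference of the 4 h response from that of WT cells, -0.96 (SE 0.21, edgeR adjusted p 8.09e-05), was under 2-fold.

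Tcof1 also went down without LAT, from 227, 163 and 165 CPM to 124, 127 and 117 CPM at 4 h and 106, 83.2 and 72.5 CPM at 20 h, with no overlap, by 0.59 and 1.08 on the log2 scale (SE 0.15 for both). Its call at 20 h was lost without Lat-/- library 3 (-0.96). By adjusted p alone 12 members were lower and 2 higher, Npm1 (0.44) and Wdr12 (0.67), in Lat-/- cells at 20 h than at 0 h, against 5.34% and 5.35% of all genes. The lowest after Tcof1 were Rrp12 (-0.91), Utp20 (-0.75) and Rrp1b (-0.73). Library 3 held less of this decline. Its median ratio to the 0 h mean over the 40 genes was 1.00, against 0.797 and 0.703 in libraries 1 and 2, and without it Rrp12 passed as well (-1.32).

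Several calls in the LAT experiment lay near 2-fold and turned on 1 replicate. Utp20 in WT cells at 4 h (1.32) was at 0.91 without replicate 2. At 20 h in WT cells, Rrn3 (1.02) was at 0.91 without replicate 2, Nop10 (1.10) at 0.92 without replicate 3, Nop14 (1.02) at 0.95 without replicate 2 and 0.99 without replicate 3, and Ddx18 (1.06) at 0.99 without replicate 1 and 0.96 without replicate 3. Against WT cells, Rrn3 at 4 h (-1.05) was at -0.94 without replicate 2, Ubtf at 4 h (-1.06) at -0.90 without replicate 1, and Tcof1 at 20 h (-1.03) at -0.88 without replicate 2.

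The wider list gave the same order of sizes. Of its 103 genes, 68 rose and 0 fell at 4 h in sorted WT cells and 1 rose and 0 fell in Lat-/- cells (Nol10, at 1.02), and at 20 h 51 rose and 2 fell in WT cells and 0 were called in Lat-/- cells, where 20 passed by adjusted p alone and 0 with DESeq2. Against WT cells, 63 were lower and 0 higher at 4 h, and 67 lower and 1 higher at 20 h. The one higher gene was Nop53 (1.88), and the lowest at 20 h was Mrto4 (-2.82). The 89 ribosomal protein genes had medians of 0.19 and 0.26 in these 2 comparisons, with 5 lower and 0 higher at 4 h and 6 lower and 5 higher at 20 h.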

How the data were processed

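Deposited were 2 tables of raw read counts per gene, 1 per experiment. According to the methods and the labels, the authors made mRNA libraries with a stranded kit, sequenced single reads, converted them with bcl2fastq (version 2.17.1.14), used STAR for alignment to GRCm38 and obtained counts per gene with featureCounts. The annotation release, the strand setting and the treatment of reads with several matches are not given in the sources used here. Since the counting strand is not given, 13 members with a gene over their exons on the other strand, and 4 with one on the same strand, could share reads with it.

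Counts were normalised with TMM factors and tested with edgeR 4.0.16 (R 4.3.3), by the quasi-likelihood test with 1 model per experiment over all genotypes and times, on the 32290 and 27780 genes with at least 1 read. P-values were adjusted over all these genes. DESeq2 1.42.0, other scalings, filters, the replicate block and leaving out replicates were alternatives. CPM used the TMM-scaled totals. Symbols matched 54487 of 55385 gene identifiers. The 40 members and all lists were chosen with earlier results of these data known. Values in every library are given, by rule, for the 2 members of each role group with the highest level per kilobase, the 3 highest and 3 lowest at 4 h in enriched WT cells, members not called there and the member furthest from WT in each knockout comparison. Genes of the wider list and of polymerases II and III are named where they were the highest or lowest at 4 h among those averaging 50 counts or more. One gene that this rule names is not reported here. Any further gene was picked with its values in view. On simulated counts with 200 genes changed 4-fold, edgeR called 198 for the difference of the 20 h responses of Cd5-/- and WT cells (31073 genes), and 6 unchanged genes. The changed genes averaged 50 counts or more, and the simulation had the same spread for all genes and no replicate effect. Recovery of smaller differences was not simulated. Replicate numbers are shared between groups. Deviations of same-numbered libraries correlated above 0.1 for all 3 numbers in 11 of 18 comparisons of 2 groups in the CD5/CD6 experiment and in 1 of 9 in the LAT experiment, so the numbers pair libraries only in part, as a hint from the data. Library totals, above, give 3 counts as 0.0663 to 0.169 CPM, far under any member.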

Additional observations from a re-analysis of the deposited data

Results flagged for a closer look

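The response of ribosome biogenesis genes to stimulation differed between Lat-/- and WT cells by the test of the difference itself. This held for 35 of 40 members at 4 h and 36 at 20 h (4.34% and 9.35% of all genes), all lower in Lat-/- cells. The members not called were Polr1c, Ubtf, Nop10, Npm1 and Tcof1 at 4 h and Polr1a, Rrn3, Ubtf and Tcof1 at 20 h. Their differences were -0.16 to -0.96 and -0.46 to -0.79 on the log2 scale. Some calls turned on 1 replicate. At 4 h Polr1a (-1.04) was at -0.75 and Rrn3 (-1.21) at -0.99 without replicate 2. At 20 h Nop10 (-1.07) was at -0.93 without replicate 1. Conversely, Ubtf (-1.18), Nop10 (-1.04) and Npm1 (-1.04) passed at 4 h without replicate 2.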

How the results depend on the processing

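Of 364 recomputed numbers of called members, 351 stayed within 1.5 times the reported number. The 13 others concern comparisons with 0 or 1 call. From 4 to 20 h in enriched WT cells (1 call), the number was 0 with RLE factors, 2 with library totals, 0 with DESeq2, 11 by adjusted p alone and 0 to 2 when a replicate was left out. By adjusted p alone it was 11 from 4 to 20 h in sorted WT cells, and in Lat-/- cells 10 at 4 h, 14 at 20 h and 19 from 4 to 20 h. Leaving out a replicate gave 1 to 2 in Lat-/- cells at 20 h and 1 to 3 from 4 to 20 h, and 3 without Lat-/- 20 h replicate 3, an alternative added after the data were seen. Signs turned only near 0. Ubtf at 4 h in enriched WT cells ranged from -0.22 to 0.02 with a replicate left out. Tcof1 was at -0.03 with library totals at 4 h there, ranged from -0.33 to 0.16 at 20 h, and in sorted WT cells at 4 h was 0.01 with the expression filter, 0.02 with the replicate block and -0.17 to 0.07 with a replicate left out. The median from 4 to 20 h in sorted WT cells was 0.019 with library totals. Library totals moved the median of all genes by -0.23 at 4 h in WT cells. In enriched WT cells this took the 4 h calls of Polr1a (0.81), Fbl (0.94) and Nop10 (0.92) under 2-fold. With the replicate block as a pairing term, 37 and 37 members rose in enriched WT cells, and the count changed only in Cd5-/-Cd6-/- cells at 20 h, to 37 from 38. In 9 of 18 comparisons there, and 2 of 9 in the LAT experiment, every library correlated best with its own number. Without the 0 h libraries that go against their labels, 0 members still differed from WT cells. Every member had 514 reads or more in every library.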
